A study of Mus musculus with 48 samples.

Results

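Almost every mitochondrial protein is made in the cytosol and must be imported, and the genes described here encode the machinery that imports it and folds it on arrival. They were chosen by symbol, as every gene on the array whose name starts with Timm or Tomm and a digit, together with Pam16, Dnajc19, Grpel1, Grpel2, Hspa9, Hspd1, Hspe1, Samm50, Mtx1, Mtx2, Pmpca, Pmpcb, Immp1l and Immp2l. This gave 39 of the 18434 genes named on the array, measured by 58 of its 27050 named probes. The family was proposed with the differences between HH and LH offspring known in both tissues, so the values of that comparison are given below as a description without a test.

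The mice were C57/BL6 offspring at 12 weeks of age, and their liver and colon RNA was labelled with Cy3 and hybridised against a common Cy5-labelled reference RNA on 48 two-colour Agilent arrays. Groups are named by 2 letters, the diet of the dam and then the diet of the offspring after weaning, where the labels call H sufficient and L deficient in selenium and folate and the methods describe H as supplemented above the recommended intake and L as marginally deficient, so that HH and LL mice stayed on one diet while HL and LH mice switched at weaning. According to the study's methods all of these diets were high in fat, so no group had an ordinary diet. Liver came from 5 HH mice (1 of them on 2 arrays, which were averaged) and from 6 mice in each of HL, LH and LL, and colon from 6 mice in each group. The labels do not tie mice to litters, so the p-values measure the spread between mice and not between dams. The labels call the reference multi-organ RNA, and the design text traces it to a homogenised pregnant mouse with its foetus, while the methods describe pooled intestinal and liver RNA. Which is right does not alter differences between groups, since all arrays share it.

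Protein precursors enter through the TOM complex of the outer membrane, in which Tomm20, Tomm22 and Tomm70a are receptors, Tomm40 forms the channel, and the small proteins Tomm5, Tomm6 and Tomm7 hold the complex together. From there the small TIM chaperones carry hydrophobic precursors across the intermembrane space, the SAM complex (Samm50, Mtx1, Mtx2) inserts barrel proteins into the outer membrane, and the TIM22 and TIM23 complexes serve the inner membrane. The motor at TIM23 is the heat shock protein Hspa9 with its nucleotide exchange factors Grpel1 and Grpel2, its anchor Timm44 and the co-chaperones Dnajc19 and Pam16. In the matrix the peptidase made of Pmpca and Pmpcb removes the targeting sequence, the inner membrane peptidases Immp1l and Immp2l trim some proteins further, and the chaperonin Hspd1 with its lid Hspe1 folds the product.

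Promoter sequences are shown for the genes on which the results turn. Hspd1 and Hspe1 lie head to head on chromosome 1, and one Hspd1 start and the Hspe1 start lie 215 bases apart, so both genes share the stretch chr1:55087933-55088147 (+ strand). For Timm10, chr2:84826771-84827020 (+ strand), Timm8b, chr9:50603651-50603900 (+ strand), and Tomm5, chr4:45108114-45108363 (- strand), which had large liver differences, the 250 bases before the start are given in the direction of the gene. All sequences and positions are those of RefSeq on GRCm38.p6, and capitals mark matches to the motifs searched on both strands, which were GAANNTTC and TTCNNGAA (the paired repeats of the heat shock element, which can overlap each other), GCGCANGCG (part of the motif of nuclear respiratory factor NRF1), CCGGAAGT (the ETS factor GABPA) and CCAAT.
Hspd1-Hspe1: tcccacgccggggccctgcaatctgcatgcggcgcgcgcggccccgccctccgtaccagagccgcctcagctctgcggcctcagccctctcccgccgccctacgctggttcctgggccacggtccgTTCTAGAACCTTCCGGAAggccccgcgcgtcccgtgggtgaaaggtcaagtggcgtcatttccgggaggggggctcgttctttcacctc
Timm10: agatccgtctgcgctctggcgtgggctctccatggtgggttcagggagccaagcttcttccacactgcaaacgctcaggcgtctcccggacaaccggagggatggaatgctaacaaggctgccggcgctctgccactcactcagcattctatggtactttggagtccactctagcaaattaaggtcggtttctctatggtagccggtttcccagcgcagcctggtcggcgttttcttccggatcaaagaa
Timm8b: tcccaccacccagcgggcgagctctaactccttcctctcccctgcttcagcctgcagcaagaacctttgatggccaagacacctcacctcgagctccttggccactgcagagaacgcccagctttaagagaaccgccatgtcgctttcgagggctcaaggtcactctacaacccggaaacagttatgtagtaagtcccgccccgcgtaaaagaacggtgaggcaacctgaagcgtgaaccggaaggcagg
Tomm5: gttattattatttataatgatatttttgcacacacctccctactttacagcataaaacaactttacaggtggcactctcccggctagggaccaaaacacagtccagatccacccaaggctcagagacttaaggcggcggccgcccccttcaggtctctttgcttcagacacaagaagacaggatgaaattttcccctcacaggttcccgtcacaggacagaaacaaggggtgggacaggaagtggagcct

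The stretch shared by Hspd1 and Hspe1 holds overlapping matches to both heat shock repeats, while the 3 other sequences, which end at the start, hold no match to the 5 motifs. In the 50 bases after the start, not printed, Timm10 has TTCNNGAA and CCGGAAGT and Timm8b has GCGCANGCG. RefSeq promoter windows of 300 bases (250 before and 50 after the start) were given for 34 of the 39 genes, in 37 windows. CCGGAAGT was in 8 of these 37 windows (21.6%) and in 3.89% of all 32851 windows. TTCNNGAA was likewise in 8 of the 37 (21.6%), against 8.52% of all windows, GCGCANGCG in 13.5% against 6.25%, GAANNTTC in 8.11% against 7.86%, and CCAAT in 35.1% against 37.4%. These matches describe letters in a window and not bound sites.

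Of the 39 genes, 37 were well above background in Cy3 on every array. The exceptions were Tomm20l, above background on 0 of 48 arrays, and Timm8a2, above it on 0 liver and 3 colon arrays, so both have only a bound on their level, and the values given for them say nothing about expression. Both are kept in the counts and medians over the 39 genes below. Over all probes, between 55.1% and 66% were well above background on each liver array and between 66.8% and 73.7% on each colon array. All 4 hepatocyte markers were higher in liver, with Alb at 5.04 ± 0.08 (SE) on the log2 scale, and all 6 smooth muscle markers were higher in colon. Other lists were mixed. Of the 6 colonocyte markers 5 were higher in colon, but Aqp8 was 3.62 ± 0.16 higher in liver. All 4 cholangiocyte markers were higher in colon, as was Des (by 3.62 ± 0.06) among the 3 stellate cell markers. Of the 6 Kupffer cell markers 5 were higher in liver, and Adgre1 was at 0.04 ± 0.11. Xist, the transcript of the inactive X chromosome of females, was more than 3 log2 units above the tissue median in 1 liver (HL) and 5 colons (2 HH, 1 HL and 2 LL), although the methods describe male offspring. The Y chromosome gene Eif2s3y, in log2 Cy3, was 6.13 in that liver, 6.06 in the HL colon and 7.21 and 6.02 in the LL colons. In the 2 HH colons it was 10.69 and 10.09. The HL and LL mice among these are part of LL minus HL below, and the 2 HH colons are part of every colon comparison with HH. In each gene below, one probe (the one brightest in Cy3) stands for the gene, and every difference is a difference of log2 mouse over reference. Since RNA was extracted from whole tissue, fewer cells of a type and less RNA per cell cannot be told apart.

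The question addressed by HH vs. LH was whether the diet of the dam alters offspring that were all fed diet H after weaning. In the liver, LH mice had a lower mean than HH mice for most of the import genes. The inner membrane peptidase Immp1l was lower by 0.67 ± 0.16 (SE), Tomm5 by 0.61 ± 0.10, and the intermembrane chaperones Timm10 and Timm8b by 0.58 ± 0.12 and 0.56 ± 0.15. Tomm7 (-0.47 ± 0.15), the chaperonin lid Hspe1 (-0.46 ± 0.15), and Tomm40l, a second form of the channel (-0.45 ± 0.19), came next. By contrast, the channel Tomm40 was higher by 0.27 ± 0.12, the motor protein Hspa9 by 0.22 ± 0.14 and the chaperonin Hspd1 by 0.18 ± 0.12.

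**Figure D1:**
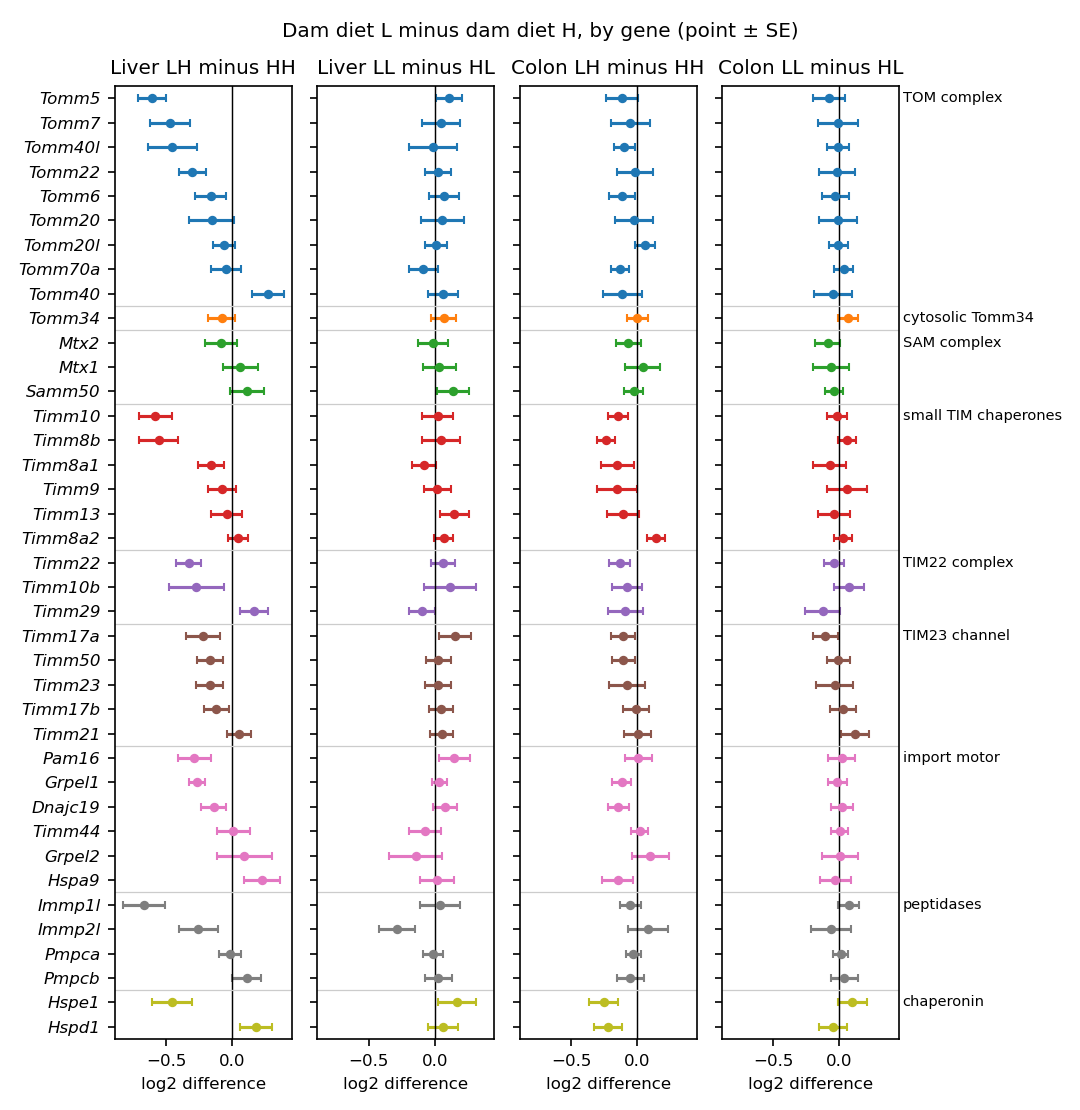
Difference between offspring of L dams and of H dams for each of the 39 genes (x axis, log2 difference; bars, SE of the limma fit), grouped by complex, for offspring on diet H (LH minus HH) and on diet L (LL minus HL) in liver and colon, with 1 x scale for all panels. Values reach -0.67 in the first panel and stay between -0.29 and 0.17 in the second, between -0.25 and 0.14 in the third and between -0.13 and 0.12 in the last.

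Tomm5 was -0.07, -0.26, -0.20, 0.05 and -0.13 in the 5 HH livers and ran from -0.86 to -0.55 (median -0.73) in the 6 LH livers. No LH liver reached the lowest HH liver. Every HL liver (-0.74 to -0.30, median -0.42) was also below the lowest HH liver and HL overlapped LH, while LL (-0.74 to -0.11, median -0.23) overlapped both HH and LH. Timm10 was 0.99, 0.91, 1.02, 0.99 and 1.14 in HH and 0.25 to 0.72 (median 0.42) in LH, again with no overlap. Its HL values ran from 0.27 to 1.02 (median 0.71) and its LL values from 0.40 to 0.92 (median 0.77), spanning most of the LH range and part of the HH range. Immp1l was 0.70, 0.45, 0.50, 0.94 and 0.54 in HH and -0.48 to 0.11 (median 0.06) in LH, so these groups were also apart. Timm8b, at -0.37, -0.14, 0.28, 0.01 and 0.00 in HH and -0.98 to -0.36 (median -0.53) in LH, overlapped by its lowest HH mouse.

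**Figure D2:**
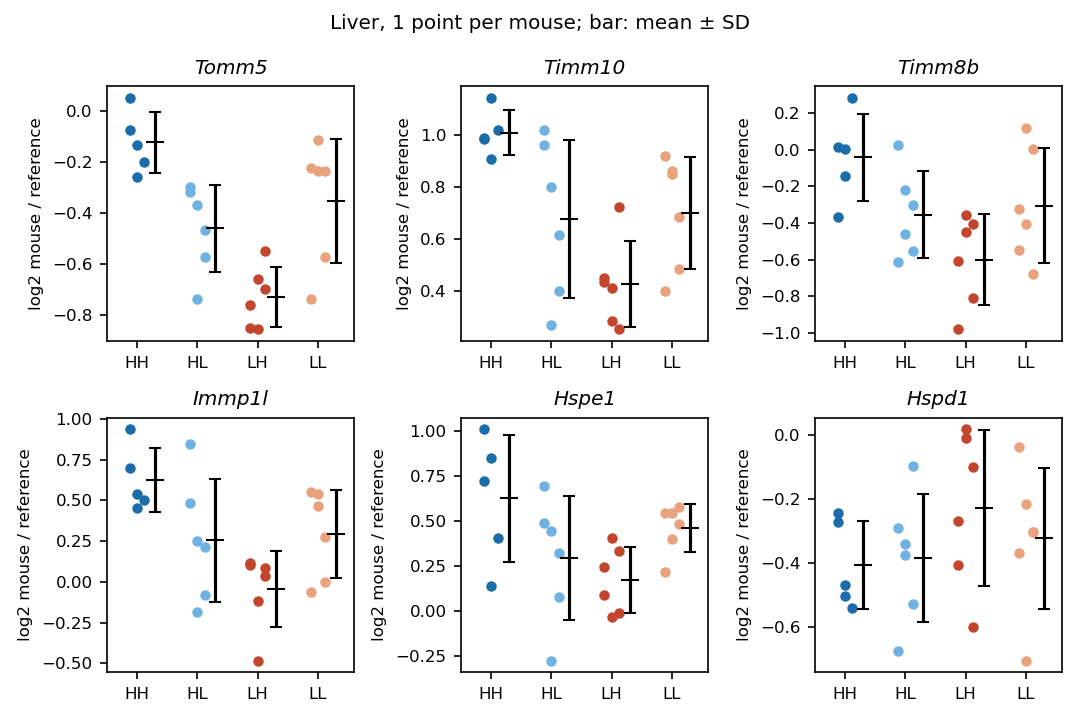
Log2 mouse over reference in liver for 6 genes, 1 point per mouse, with the mean ± SD of each diet group (HH, n = 5; HL, LH and LL, n = 6). For Tomm5, Timm10 and Immp1l no LH mouse reaches the lowest HH mouse, while for Hspd1 the LH mice, from -0.60 to 0.02, cover the whole HH range of -0.54 to -0.24.

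Lower values were found in 28 of the 39 genes by sign, with a median of -0.14, against -0.02 over all named genes, of which 54.9% were lower. LH and HH mice did not overlap in 7 of the 39 genes, all lower in LH (Tomm5, Tomm7, Tomm22, Tomm40l, Timm10, Immp1l and Grpel1), against 0.846% of all probes apart in that direction and 0.697% in the other. That share counts every probe, dim ones included, while the genes are counted by their brightest probe. None of the 58 probes, and 0% of all probes, passed a 1.5-fold change with an adjusted p under 0.05 in limma. The study itself, which counts 6 animals per group, reported differentially expressed probes at these thresholds for this and other liver comparisons. Here HH had 5 mice, and the cause of the disagreement was not tested. On every one of the 6 slides, each of which carried all 4 diets, the median of the genes' LH minus HH differences was below 0 (-0.23 to -0.11), and Tomm5, Timm10, Timm8b, Immp1l and Tomm7 were lower in LH. The slides held only 5 HH mice, since 1 was on 2 slides. The median level over the genes, a different quantity, was higher in LH (0.25) than in HH (0.21) on slide 2.

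By complex, 8 of 9 TOM genes were lower by sign (median -0.16), as were 5 of 6 small TIM chaperones (-0.12), 4 of 5 TIM23 channel genes (-0.17) and 2 of 3 TIM22 genes (-0.27). These counts include Tomm20l (lower) and Timm8a2 (higher), neither of them well above background. The import motor was divided, with 3 of 6 genes lower, and the SAM complex had 1 of 3 lower (median 0.06). Of the receptors, Tomm22 was lower by 0.31 ± 0.10, Tomm20 by 0.16 ± 0.17 and Tomm70a by 0.05 ± 0.11. Within the TIM23 complex, Timm23 (-0.17 ± 0.10) and Timm50 (-0.17 ± 0.10), which receives precursors from TOM, were close to each other, and Timm44 was at 0.01 ± 0.12. The insertase Timm22 was at -0.33 ± 0.10, whereas Timm29, its metazoan partner, was at 0.16 ± 0.11. Of the other small TIM chaperones, Timm9, which assembles with Timm10, was at -0.08 ± 0.11 and Timm13 at -0.04 ± 0.11. The processing peptidase showed little difference, with Pmpca at -0.02 ± 0.08 and Pmpcb at 0.11 ± 0.11, and Samm50 was at 0.11 ± 0.13.

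Different probes of 1 gene did not always give 1 direction. Of the 15 genes with more than 1 probe, 8 had probes that differed in sign in this comparison. The 3 probes of Grpel1 gave -0.27 (the brightest), -0.14 and 0.52, and those of Timm22 gave -0.33 and 0.06. The second probes of Hspa9 and Hspd1 lay further up than the first, at 0.66 and 0.46, and both probes of Immp1l were lower, at -0.67 and -0.43. Tomm5, Tomm7, Timm8b, Timm10 and Hspe1 each rest on a single probe. With the mean of all probes for each gene, the median over the genes in liver LH minus HH was nearer 0.

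The same change of dam diet was also made in mice fed diet L after weaning (HL vs. LL), and these mice took no part in the comparison on which the genes were chosen. There the differences were small and mostly of the other sign. The median over the 39 genes was 0.04, 9 genes (23.1%) were lower by sign against 54.1% of all named genes, and Tomm5, Timm10, Timm8b and Immp1l differed by 0.11 ± 0.10, 0.02 ± 0.12, 0.05 ± 0.14 and 0.04 ± 0.15. The largest difference was that of Immp2l, at -0.29 ± 0.14, followed by Hspe1 (0.17 ± 0.15), Timm17a (0.15 ± 0.12), Pam16 (0.15 ± 0.12), Timm13 (0.15 ± 0.11) and Grpel2 (-0.15 ± 0.20). At an unadjusted p under 0.05 there were 1 higher probe of 58 (1.72%) and 0 lower ones, against 1.43% and 1.66% of all probes, and the lowest adjusted p of any of the 58 probes was 1 in limma. Without the 2 HL mice (replicates 5 and 6) whose arrays had very bright local backgrounds, the median moved to -0.0032, and with single mice left out it ran from 0.0153 (without HL replicate 5, with a like value without LL replicate 5) to 0.0523.

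**Figure D3:**
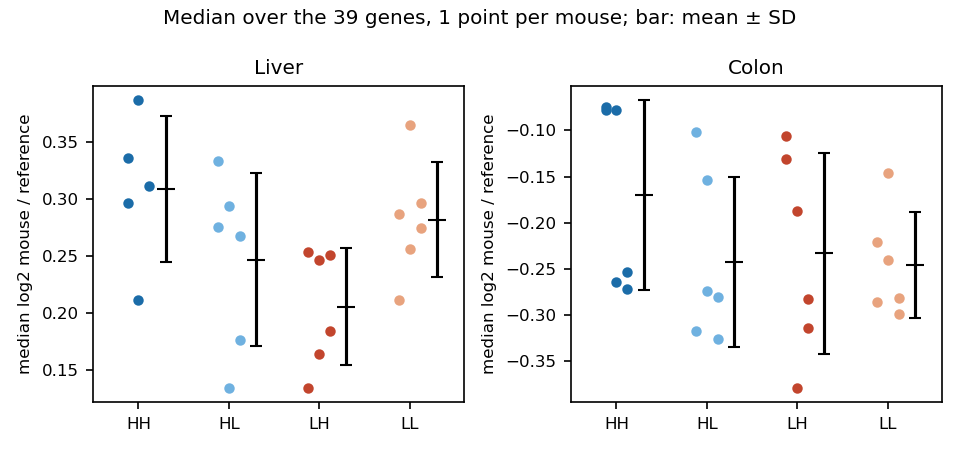
Median of log2 mouse over reference over the 39 genes, 1 point per mouse, with the mean ± SD of each group (liver HH, n = 5; all others, n = 6). In liver the group means run from 0.31 in HH to 0.21 in LH, with HL at 0.25 and LL at 0.28, and in colon all group means lie between -0.25 and -0.17.

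A change of the offspring's own diet was measured within each dam diet. Among offspring of H dams (HL minus HH, which shares its HH mice with the comparison above), the median was -0.07 and the largest differences were those of Immp1l (-0.37 ± 0.16), Tomm5 (-0.34 ± 0.10), Hspe1 (-0.33 ± 0.15), Timm10 (-0.33 ± 0.12), Timm8b (-0.31 ± 0.15) and, higher, Timm29 (0.25 ± 0.11). Lower at an unadjusted p under 0.05 were 6 probes (10.3%, against 2.22% of all probes) and higher was 1 (1.72%, against 2.15%). Among offspring of L dams (LL minus LH, which shares its LH mice), the signs were turned, with Tomm5 at 0.38 ± 0.10, Immp1l at 0.34 ± 0.15, Pam16 at 0.30 ± 0.12, Timm8b at 0.30 ± 0.14, Hspe1 at 0.29 ± 0.15 and Tomm7 at 0.28 ± 0.14, and a median of 0.09. Here 8 probes (13.8%, against 3.21%) were higher and 0 lower (against 3.17%). No probe passed the threshold in either comparison, where the lowest adjusted p among the 58 probes was 0.952 and 0.768, and both share mice with the comparison that chose the genes.

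The 2 diets together are described by the interaction, (LL minus LH) minus (HL minus HH), which contains HH and LH mice and is given without a test of single genes. Its median was 0.17, with Tomm5 at 0.71 ± 0.14, Immp1l at 0.71 ± 0.22, Hspe1 at 0.62 ± 0.21, Timm8b at 0.61 ± 0.21, Timm10 at 0.61 ± 0.17 and Tomm7 at 0.52 ± 0.21. In each of these genes the means of both groups that switched diet at weaning (HL and LH) lay below those of HH and LL, which did not. The genes were picked for the largest interaction, which favours this order, so the order adds no support. How many other genes show it was not counted. HL and LL were close, differing by 0.02 for Timm10, 0.04 for Immp1l, 0.05 for Timm8b and Tomm7, 0.11 for Tomm5 and 0.17 for Hspe1. None of the 58 probes, and 0% of all probes, passed the threshold. For LL minus HH, with diet L throughout, the median was -0.04 and 2 of 58 probes had an unadjusted p under 0.05 (3.45% of all probes did), the largest differences being those of Immp1l (-0.33 ± 0.16), Timm10 (-0.31 ± 0.12), Immp2l (-0.29 ± 0.15), Timm8b (-0.26 ± 0.15), Tomm40l (-0.26 ± 0.19) and Tomm5 (-0.23 ± 0.10). For LH minus HL, the 2 opposite switches, the median was -0.07 and 3 probes had such a p (1.74% of all probes), led by Immp1l (-0.30 ± 0.15), Tomm5 (-0.27 ± 0.10), Immp2l (-0.26 ± 0.14), Timm10 (-0.25 ± 0.12), Timm8b (-0.25 ± 0.14) and Tomm7 (-0.23 ± 0.14). Neither had a probe past the threshold.

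In the colon the differences were smaller. LH lay below HH by a median of 0.08, with 30 of the 39 genes lower by sign against 46.6% of all named genes, and the largest differences were those of the chaperonin pair, Hspe1 (-0.25 ± 0.11) and Hspd1 (-0.22 ± 0.11), and of Timm8b (-0.24 ± 0.07). They were followed by Timm9 (-0.15 ± 0.15), Timm8a1 (-0.15 ± 0.12) and Hspa9 (-0.15 ± 0.12), while Timm10 was at -0.15 ± 0.08. Timm8b ran from -1.15 to -0.81 (median -0.97) in HH and from -1.37 to -1.04 (median -1.21) in LH, so the groups overlapped. On all 6 slides the median of the genes' differences was below 0 (-0.11 to -0.05). Over the alternatives the median ran from -0.1383 (median centring) to -0.0437 (without HH replicates 1 and 4, on arrays with bright local backgrounds), and it was -0.0486 without HH replicate 1 alone. The study called no single gene in colon, but its gene set analysis reported a change in mitochondrial protein import between HH and LH. No gene set test was run here.

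The other colon comparisons gave still smaller values, and the lowest adjusted p among the 58 probes was 1 in each. In LL minus HL, which shares no mouse with the choice of the genes, the median was -0.01, the 6 largest differences ran from -0.13 (Timm29) to 0.12 (Timm21), with Timm17a, Hspe1, Mtx2 and Tomm5 between them, and 0 of 58 probes had an unadjusted p under 0.05 in either direction, against 0.544% of all probes higher and 0.481% lower. In HL minus HH, Hspe1 was again lowest (-0.27 ± 0.11), followed by Immp1l, Timm10, Tomm7, Timm8b and Tomm40l at -0.12 to -0.10, with a median of -0.04 and 1 lower probe and 0 higher ones (0.789% and 0.673% of all probes). In LL minus LH the largest were Timm8b (0.19 ± 0.07), Timm9 (0.19 ± 0.15) and Tomm70a (0.15 ± 0.07), with Timm8a2 (-0.15 ± 0.07, not well above background), Immp2l (-0.14 ± 0.15) and Hspa9 (0.13 ± 0.12) next, and 2 probes were higher and 1 lower (1.19% and 1.61% of all probes).

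For the interaction in the colon, Hspe1 was at 0.35 ± 0.16 and Timm8b at 0.29 ± 0.10, followed by Timm9, Hspd1, Dnajc19 and Tomm70a at 0.16 to 0.21. In LL minus HH the median was -0.05 and 0 probes had an unadjusted p under 0.05 (1.72% of all probes), with Hspe1 at -0.17 ± 0.11 and Timm10, Tomm5, Timm17a, Timm8a1 and Tomm7 at -0.13 to -0.12. In LH minus HL the median was -0.03 and 1 probe was under it (2.95% of all probes), that of Timm8a2 (0.17 ± 0.07), which was not well above background. The next differences were those of Tomm40 (-0.17 ± 0.15), Timm29 (-0.17 ± 0.13), Hspa9 (-0.16 ± 0.12), Hspd1 (-0.15 ± 0.11) and Timm8b (-0.14 ± 0.07). The LH minus HH difference in liver was set against that in colon in 1 fit of both tissues, and so were LL minus HL, HL minus HH and LL minus LH, and 0 of the 58 probes passed the threshold (0% of all probes) in any of them.

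Hspd1 and Hspe1 start from the shared stretch shown above, and their products act as 1 folding chamber. In liver, Hspe1 was 0.72, 0.14, 0.41, 1.01 and 0.85 in the HH mice and -0.03 to 0.41 (median 0.17) in LH, while Hspd1 was -0.24, -0.47, -0.54, -0.27 and -0.50 in HH and -0.60 to 0.02 (median -0.18) in LH. Thus Hspe1 lay lower and Hspd1 somewhat higher in LH, with overlapping groups in each. The log2 difference of Hspd1 minus Hspe1 within a mouse averaged -1.03 ± 0.30 (SD, n = 5) in HH, -0.40 ± 0.25 (n = 6) in LH, -0.68 ± 0.48 in HL and -0.78 ± 0.29 in LL. Between HL and LL, the groups that the choice of genes did not use, it differed by -0.11 in liver and by -0.14 in colon (exact permutation test over 924 splits, two-sided, p = 0.647 and p = 0.323). The splits did not keep the mice of 1 slide paired, and this pair of genes was chosen after its values were seen.

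Hspd1 and Hspe1 were also compared across mice, with each diet group centred on its own mean. Pearson's r was 0.54 over 24 colons (permutation p = 0.0107, Benjamini-Hochberg adjusted p = 0.0427). Spearman's rho was 0.52 (permutation p = 0.0148, adjusted p = 0.0591). The adjustment covered 4 tests, each gene pair in each tissue. Pearson's r was 0.39 without the 2 colons farthest from the median of Hspd1 and 0.42 within slides. The permutations did not keep mice of 1 slide together, although these correlated over all probes at a median of 0.359 in colon, and the value within slides was not tested. Over 23 livers r was -0.04 and rho 0.00 (permutation p = 0.865 and 0.984), -0.17 without the 2 farthest livers and -0.14 within slides. The other pair looked at, Timm8b and Timm10, gave r of 0.07 in liver and -0.21 in colon (permutation p = 0.779 and 0.427), with rho of 0.08 and -0.14 and, within slides, r of 0.53 and -0.13. The pairs were chosen after their values were seen, the correlation in liver was not tested against that in colon, and both Hspd1 and Hspe1 have processed copies in the genome that could hybridise to the same probes.

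**Figure D4:**
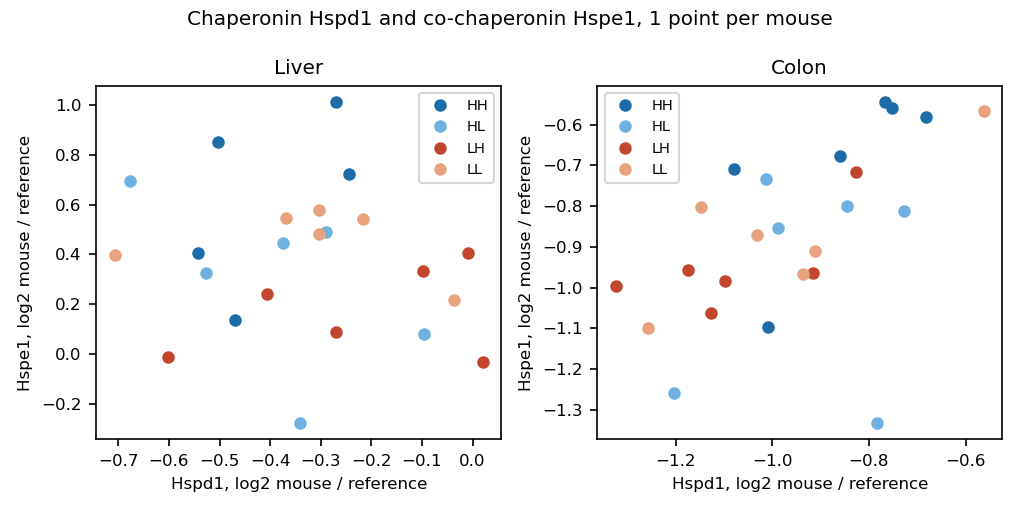
Hspe1 (y axis) against Hspd1 (x axis), both as log2 mouse over reference, 1 point per mouse and coloured by diet group, in 23 livers and 24 colons. The colon points lie along a rising line (r = 0.54 within groups), while in liver the HH mice lie at Hspe1 values of 0.14 to 1.01 and the LH mice at -0.03 to 0.41, with 3 of the 6 LH mice above every HH mouse in Hspd1.

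The comparison of the tissues, unlike those of the diets, gave genes past the threshold. Over all diets, 20 of the 39 genes passed the threshold as higher in liver and 1 as lower (51.3% and 2.56%, against 14.6% and 15.7% of all probes), and the median over the genes was 0.59, against 0.01 over all named genes. The shares of all probes count dim probes too, while the genes are counted by their brightest probe. Liver and colon arrays were hybridised on separate slides and scanned apart, so tissue and slide cannot be told apart. Centring each array on its median in place of loess normalisation gave 11 genes higher and 5 lower and a median of 0.16, with all named genes at -0.15. Over the whole array that setting gave 13992 probes higher and 10231 lower, against 6023 and 6474 of 41171 with loess. The excess of higher genes over the whole array thus depended on the normalisation.

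The highest was Immp2l, which ran from 1.75 to 2.93 in 23 livers and from -0.60 to 0.42 in 24 colons, a difference of 2.48 ± 0.08 (SE; adjusted p = 8.03e-31, limma), and its second probe gave 2.38. No liver overlapped any colon for this gene. Timm9 ran from 0.18 to 0.81 in liver and from -1.73 to -0.73 in colon (1.78 ± 0.07), and Dnajc19 from 0.09 to 0.67 and from -1.24 to -0.73 (1.35 ± 0.04), again with no overlap. Hspe1 (1.26 ± 0.07), Timm29 (1.25 ± 0.06) and Grpel1 (1.18 ± 0.03) completed the 6 highest. At the other end, Grpel2 was lower in liver by 0.68 ± 0.09, so that the 2 exchange factors of the motor went in opposite directions, but its second probe gave 0.05 ± 0.08 and was not called. Tomm7 (-0.37 ± 0.08), Tomm34, a cytosolic co-chaperone (-0.27 ± 0.04), and Tomm5 (-0.25 ± 0.06) had adjusted p-values under 0.05 but stayed within 1.5-fold, and Timm22 (-0.06 ± 0.04) and Tomm22 (-0.01 ± 0.06) had neither.

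**Figure D5:**
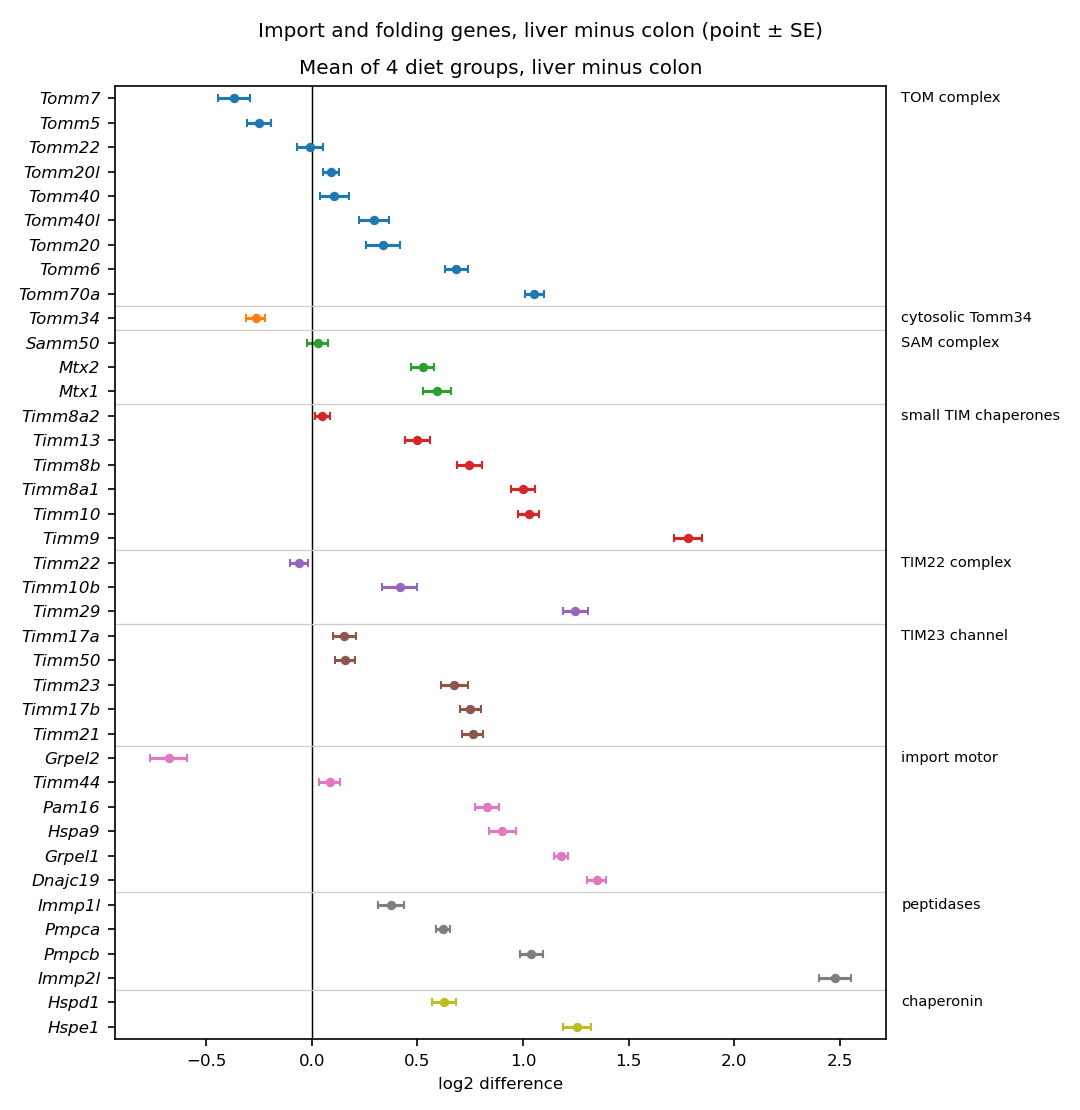
Liver minus colon for each of the 39 genes (x axis, log2 difference of the means over the 4 diet groups; bars, SE of the limma fit), grouped by complex. Immp2l lies farthest up at 2.48 and Grpel2 farthest down at -0.68, and the TOM complex spans from -0.37 (Tomm7) to 1.05 (Tomm70a).

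By complex, the median difference between liver and colon was 0.94 for the chaperonin, 0.87 for the small TIM chaperones, 0.87 for the import motor, 0.83 for the peptidases, 0.67 for the TIM23 channel, 0.53 for the SAM complex, 0.42 for the TIM22 complex and 0.11 for the TOM complex. Receptors of the TOM complex were spread widely, with Tomm70a higher in liver by 1.05 ± 0.05, Tomm20 by 0.34 ± 0.08 and Tomm22 at -0.01. Timm9 and Timm10, which work in 1 ring, were both higher (1.78 and 1.03), as were both subunits of the processing peptidase, Pmpcb by 1.04 ± 0.05 and Pmpca by 0.62 ± 0.03, and both chaperonin genes, Hspd1 by 0.62 ± 0.06.

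A further 24 genes of import, folding and quality control in mitochondria, among them the disulfide relay enzymes Chchd4 and Gfer, the insertase Oxa1l and the proteases Lonp1, Clpp and Yme1l1, were listed alongside. In the liver, LH minus HH gave 4 of them lower and 1 higher at an unadjusted p under 0.05 (6.15% and 5.84% of all probes), with a median close to 0. The lower ones were Dnajc15, a relative of Dnajc19 (-0.57 ± 0.17), the iron-sulphur cluster co-chaperone Hscb (-0.39 ± 0.13), Romo1 (-0.35 ± 0.13) and Chchd4 (-0.28 ± 0.12), and the higher one was the protease Oma1 (0.52 ± 0.16). In liver LL minus HL (1.43% of all probes higher and 1.66% lower), and in LH minus HH in the colon (1.89% and 1.35%), 0 of the 24 were under that p. Between liver and colon 12 were higher in liver and 1 lower past the threshold (14.6% and 15.7% of all probes), with a median of 0.61. These shares count every probe, dim ones included, while the 24 genes are counted by their brightest probe.

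Marker genes of other cells were measured on the same arrays. In HH livers the mean of the 6 Kupffer cell markers, all expressed in liver macrophages, ran from 1.43 to 2.82 (median 2.07). In LH livers it ran from 1.39 to 2.57 (median 1.67). Of the 6, 1 was lower in LH at an unadjusted p under 0.05, against 6.15% of all probes. The marker lists of erythroid, stellate, goblet, and plasma and B cells also held 1 such gene each. The 4 hepatocyte markers averaged 1.23 to 1.71 in HH and 1.36 to 2.04 in LH, with 0 under that p. Their part in the differences between diets was not tested.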

How the data were processed

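RNA of 24 liver and 24 colon arrays was analysed, grouped by the labels. Per the file headers the authors deposited, for each spot, raw median intensities of both dyes and of the local background, and intensities that Feature Extraction had background-subtracted and dye-normalised. A further file deposited by the authors holds log2 ratios after loess without background correction. Set against the scanner values, these run as reference over mouse, and its column medians run from -0.001223 to 0.01854. The submitters' processing notes name limma and R 3.0.2.

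In R 4.3.3 with limma 3.58.1, raw intensities were background-corrected (normexp, offset 50), after a local background brighter than its spot was replaced by that array's median background. Global loess followed, control and outlier spots were left out, and spots of a probe and the 2 arrays of 1 mouse were averaged. Names came from each probe's accession through the RefSeq table of GRCm38.p6, and 27050 of 41174 probes had one. lmFit and eBayes were run for 4 groups per tissue (8 for liver minus colon), with Benjamini-Hochberg adjustment over all probes and a threshold of 1.5-fold and adjusted p under 0.05. The brightest probe stood for a gene. Genes named were the 6 largest differences in each comparison, the core subunits, and the 6 highest and lowest between tissues. The tests were first run on simulated data with known answers. Alternatives changed the background, normalisation, table, slide block, samples and weights. Members and lists were chosen with earlier results of these data known. Per the labels each slide held 1 array of each diet, which pairs the mice. With group means removed, mice of 1 slide correlated at a median of 0.146 in liver (-0.323 to 0.67) and 0.359 in colon (0.089 to 0.722). The number of mice limits the precision.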

Additional observations from a re-analysis of the deposited data

Results flagged for a closer look

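Among 16 genes, the median over the family and Hspd1 minus Hspe1, each in 8 groups, 7 of 144 groups held a mouse standing far from the rest by Dixon's test, which chance gives in about 1 of 20 groups. In liver LH, Tomm22 was 0.15 in replicate 4, where the nearest mouse was at 0.44. In liver LL, Tomm22 was 1.07 in replicate 3 (nearest 0.68), Tomm40l was 0.0777 in replicate 4 (nearest 0.49) and Grpel1 was 0.80 in replicate 1 (nearest 0.66). In colon, Hspe1 was -1.10 in HH replicate 3 (nearest -0.71) and -0.72 in LH replicate 5 (nearest -0.96), and Immp1l was -0.49 in HL replicate 3 (nearest -0.15).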

How the results depend on the processing

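The median difference over the member genes, Liver LH minus HH, kept its sign under all alternatives, from -0.17 to -0.0386. The latter came with median centring in place of loess, where the median of all named genes was -0.0293, against -0.14 and -0.02 as reported. The mean of all probes of a gene gave -0.0822, and a liver interaction median of 0.0808. Median centring also moved the medians of liver HL minus HH to 0.0465, of LL minus HH to 0.1002 and of the interaction to 0.0832, that of colon LH minus HL to -0.18, and that of liver minus colon to 0.16, with 11 genes higher and 5 lower past the threshold. The median of all named genes moved from 0.01 to -0.15 in that last comparison, a shift in the same direction. Over the whole array 13992 probes were then higher and 10231 lower past the threshold, against 6023 and 6474 with loess. The scanner's processed signals gave a liver minus colon median of 0.47. In liver LH minus HH, 1 member probe (Tomm5) passed the threshold when both arrays of the repeated mouse counted as 2 mice, and likewise 1 (Tomm5) when only the 2 groups compared were fitted. Fitting both tissues together gave 2 (Tomm5 and Immp1l), and leaving out mice on arrays with very bright local backgrounds, an alternative chosen after seeing the data, gave 1 (Tomm5). These fits are of the comparison known when the genes were chosen, so their calls are a description and not a test of the genes. Array weights gave 4 probes in the liver interaction, those of Tomm5, Immp1l and Timm10 (higher) and a dimmer probe of Grpel1 (lower). How many of all probes passed in these alternative fits was not counted, so these calls cannot be set against the whole array. No other alternative gave a member probe past the threshold in a diet comparison, single mice left out included. The difference of Timm29, Colon LL minus HL, ran from -0.2026 to 0.0024 with single mice left out and changed sign without HL replicate 3. With slide as a replicate block, which pairs the mice, 0 probes passed in any diet comparison and the median of liver LH minus HH was -0.14. Medians near 0 changed sign in liver LL minus HL (-0.0032 without the bright-background arrays), and in colon HL minus HH (0.0363 with median centring), LL minus HL (up to 0.006, without HL replicate 1) and LL minus LH (down to -0.0151, without the mice with Xist). Signals near background limit what can be said of Tomm20l and Timm8a2. The cause of these changes was not tested.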
